A study of Homo sapiens with 3 samples.

Results

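The zinc finger gene clusters of chromosome 19 were examined for binding of TFE3, in 5 regions fixed by their hg19 coordinates. Chromosome 19 is known for long tandem arrays of genes that encode Krüppel-type zinc finger proteins, most of which carry a KRAB domain. KRAB zinc finger proteins bind DNA through their finger arrays and recruit the co-repressor TRIM28, which brings in the histone methyltransferase SETDB1, and many of them silence transposable elements. The clusters grew by repeated duplication, and the bodies of the zinc finger genes themselves often carry the repressive mark H3K9me3. TFE3 belongs to the MiT/TFE family of helix-loop-helix leucine zipper factors, known for driving lysosomal and autophagy genes through E-box type elements in their promoters.

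The members are the HA-TFE3 summits inside these regions, which cover 10.3 Mb of the 59.1 Mb of the chromosome. The 19p12 cluster runs from base 19900001 to 24400000, that of 19q13.12 from 37000001 to 38400000 and that of 19q13.31 from 44300001 to 45000000. The cluster of 19q13.41 and 19q13.42 runs from 52300001 to 54000000, and the most distal, in 19q13.43, from 56900001 to 58900000. They held 221 of the 62287 summits of replicate 1 and 234 of the 72647 summits of replicate 2 on chromosomes 1 to 22 and X. A summit of one list and a summit of the other were paired when they were mutually nearest and no more than 100 bp separated them. By this rule 190 pairs lay in the clusters, of 2370 on chromosome 19 and 47396 in all. No pair had one summit inside a cluster and the other outside.

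HK-2, an established line from human kidney proximal tubule, carried an HA-TFE3 gene under doxycycline control, and 2 ChIP libraries were made with an antibody to the HA tag. Culture is given as 24 h with or without doxycycline at 0.2 µg/ml, and the labels do not assign either condition to a library, so induction is not described. The remaining sample, input DNA, entered no comparison. Whether the 2 ChIP libraries represent separate cultures is not stated, and SDs over them may therefore reflect technical spread alone. The p-values were computed over summits and include no spread between libraries or cultures. The lists hold positions and scores without read counts, and the depth of sequencing is unknown.

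In gene order, as RefSeq gives it on GRCh38.p14, 265 of 1451 protein-coding genes of chromosome 19 carried a zinc finger symbol (ZNF, ZFP, ZSCAN, ZIM, ZIK or ZKSCAN with a number). They were 46.6% of the 569 such genes on all chromosomes. The longest unbroken run held 27 genes, from ZNF737 to ZNF681. Others held 24 genes from ZNF565 to ZNF793, 23 from ZNF772 to ZNF256 and 20 from ZNF283 to ZNF180. A further run of 24 genes, from ZNF627 to ZNF791, belongs as background to 19p13.2. That band lies outside the 5 regions, so the rest of the chromosome is not free of zinc finger genes. No summit was assigned to a gene, since the table is on another build than the summits.

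The first question was how densely HA-TFE3 summits occurred in the clusters. Summits were sparse there for this chromosome. Replicate 1 had 21.5 summits per Mb in the clusters (95% exact Poisson interval 18.7 to 24.5) against 59.1 in the rest of chromosome 19. Replicate 2 had 22.7 per Mb (19.9 to 25.8) against 66.8, and summits found in both lists had 18.4 per Mb (15.9 to 21.3) against 44.6. The density in the clusters was therefore 0.352 ± 0.016 of that in the rest of the chromosome (SD, n = 2), a difference far larger than the spread between the libraries. For shared summits the fold was 0.413 (95% interval 0.354 to 0.479, two-sided exact conditional binomial test, p = 8.49e-40). Neighbouring summits are not independent, so this and the other tests over summits describe the lists, and the intervals cover counting error only. How much of each cluster can be mapped with short reads was not measured, and the clusters hold many duplicated genes of similar sequence.

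Against the genome as a whole the clusters fell on both sides. Shared summits occurred at 15.6 per Mb over chromosomes 1 to 22 and X, and the 5 clusters together stood at 1.18-fold the rest of the genome (interval 1.02 to 1.36, two-sided exact conditional binomial test, p = 0.0242). All summits of replicate 1 gave 1.05-fold (0.912 to 1.19) and those of replicate 2 gave 0.949-fold (0.831 to 1.08), and both intervals include equal density. The pooled values join clusters that differ. Shared summits in 19p12 had 0.541-fold the density of the rest of the genome (interval 0.383 to 0.743, adjusted p = 8.9e-05 by the exact test over 5 clusters), so this cluster was sparse by either reference. The 19q13.43 cluster had 2.18-fold (1.69 to 2.76, exact adjusted p = 4.8e-08) and that of 19q13.41 and 19q13.42 had 1.51-fold (1.08 to 2.05, exact adjusted p = 0.0243), which did not pass in replicate 2 alone (1.28-fold, exact adjusted p = 0.140). The intervals of 19q13.12 (0.852 to 1.85) and 19q13.31 (0.837 to 2.38) include equal density. The comparisons with the genome were added after the data were seen. They used whole chromosome lengths, centromeres and assembly gaps included, which lowers the density of the genome and raises these folds. A genome length without them was not tried.

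**Figure D1:**
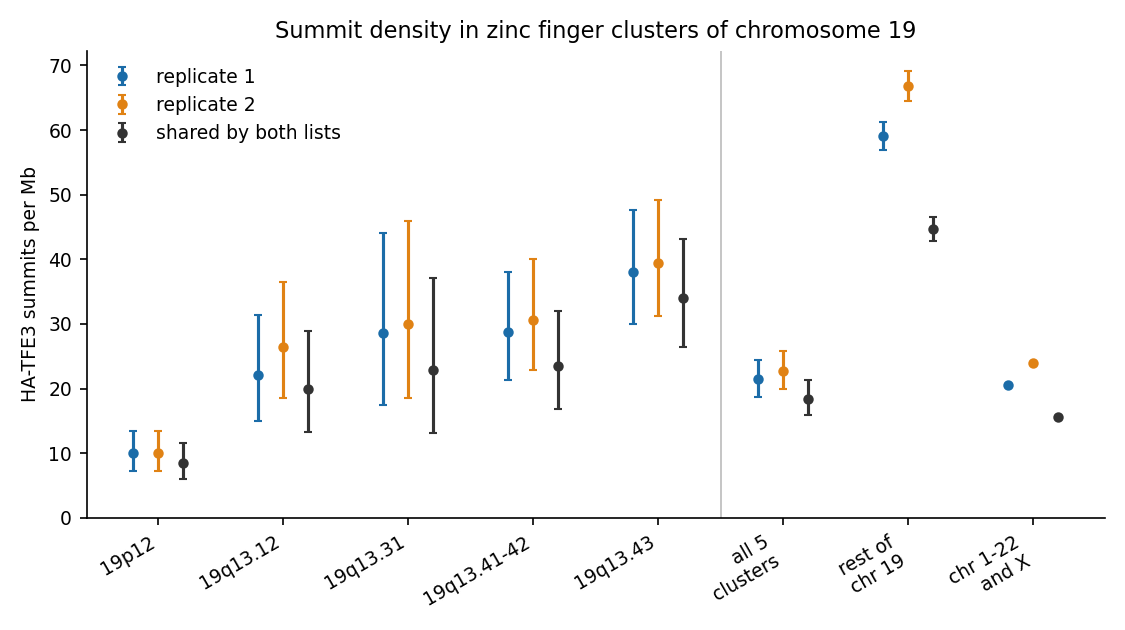
Summits per Mb (vertical axis) in each of the 5 clusters, in all 5 together, in the rest of chromosome 19 and over chromosomes 1 to 22 and X. Points give replicate 1, replicate 2 and summits shared by both lists, and bars are 95% exact Poisson intervals. All clusters lie below the rest of chromosome 19, and the 19p12 cluster is the lowest with 10, 10 and 8.44 summits per Mb.

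The clusters differed among themselves. The 19p12 cluster, next to the centromere and known for the primate-expanded ZNF91 family, was the sparsest, with 45 summits in replicate 1, 45 in replicate 2 and 38 shared pairs over 4.5 Mb. Its shared density of 8.44 per Mb was 0.189-fold that of the rest of chromosome 19 (interval 0.133 to 0.260). The 19q13.12 cluster held 31 and 37 summits and 28 pairs, or 20 shared per Mb. The 19q13.31 cluster held 20 and 21 summits and 16 pairs, or 22.9 shared per Mb. The cluster of 19q13.41 and 19q13.42 held 49 and 52 summits and 40 pairs, or 23.5 shared per Mb. The 19q13.43 cluster was the densest, with 76 and 79 summits and 68 pairs, or 34.0 shared per Mb.

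Each cluster was compared with the rest of the chromosome by the two-sided exact conditional binomial test, adjusted over 5 clusters. All 5 had a lower density of shared summits, with adjusted p between 1.35e-41 for 19p12 and 0.0260 for 19q13.43. In 19q13.43 the fold was 0.762 (interval 0.589 to 0.969), and in 19q13.31 it was 0.512 (0.292 to 0.833). These calls were lost at higher scores or with tighter pairing. With summits above the median score only, the fold was 0.970 in 19q13.43 and 0.887 in 19q13.31, and with pairs at most 50 bp apart it was 0.870 and 0.652. With each list cut to its 10000 highest scores the fold was 1.17 in 19q13.43 (0.731 to 1.77) and 1.16 in 19q13.31 (0.497 to 2.30), and the calls for 19q13.12 and for 19q13.41 and 19q13.42 were lost too, at 0.434 (0.159 to 0.952) and 0.536 (0.244 to 1.03). Only that of 19p12 passed in each alternative run on it.

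The order of the clusters was tested over 10 pairs with the same adjustment. The 19p12 cluster had fewer shared summits per Mb than each of the other 4. The other clusters exceeded it by 2.37-fold for 19q13.12 (interval 1.40 to 3.96), 2.71-fold for 19q13.31 (1.41 to 4.97), 2.79-fold for 19q13.41 and 19q13.42 (1.74 to 4.46) and 4.03-fold for 19q13.43 (2.67 to 6.16). The largest adjusted p of these 4 was 0.00481 by the exact test. Of the other 6 pairs, 1 passed, with 1.70-fold more in 19q13.43 than in 19q13.12 (interval 1.08 to 2.74, exact adjusted p = 0.0339). In replicate 2 alone this pair did not pass (1.49-fold, exact adjusted p = 0.0945). No neighbouring pair in the order from 19q13.12 to 19q13.43 differed beyond counting error.

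The fall in density was seen at the cluster edges. In the 250 kb just outside the edges, shared summits occurred at 49.8 per Mb (95% Poisson interval 41.0 to 60.0), and in the 250 kb just inside at 24.4 per Mb (18.7 to 31.3). Replicate 1 went from 63.3 to 28.0 per Mb and replicate 2 from 72.2 to 32.0. Further in, shared summits stood at 20.5, 15.8 and 30 per Mb in the next steps of 250 kb, and the deeper steps come from fewer clusters. The flanks within 1 Mb of an edge, outside the centromere bands, held 51.4 shared summits per Mb (46.6 to 56.5). Relative to these flanks the clusters had a fold of 0.359 (interval 0.301 to 0.427, two-sided exact conditional binomial test, p = 1.73e-34). Against the whole rest of the chromosome, also without the centromere bands, the fold was 0.379 (0.325 to 0.440), an overlapping interval.

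**Figure D2:**
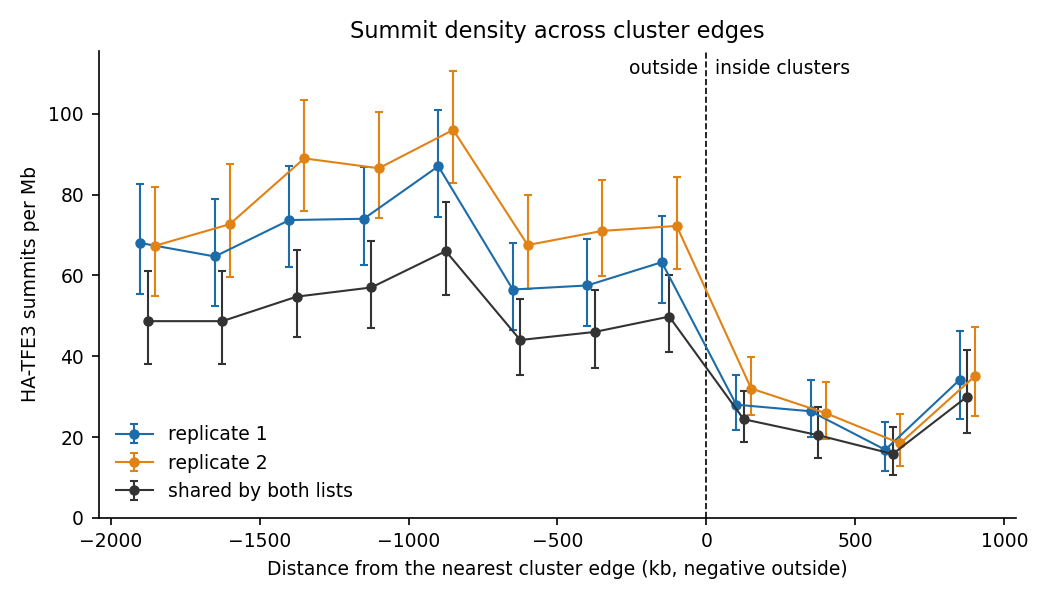
Summits per Mb (vertical axis) against the distance from the nearest cluster edge in steps of 250 kb (horizontal axis, negative outside), over all 5 clusters and without the centromere bands. Points are replicate 1, replicate 2 and shared summits, with 95% exact Poisson intervals; shared summits stand at 49.8 per Mb in the last step outside and at 24.4 in the first step inside.

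The stretches of chromosome 19 between the clusters were not all dense. The stretch between the 19p12 and 19q13.12 clusters, which includes the centromere and 19q12, reached only 12.9 shared summits per Mb (95% exact Poisson bounds 10.95 to 15.0). This is below the 18.4 of the clusters, but the stretch includes the centromere bands 19p11 (0 per Mb) and 19q11 (3.33 per Mb), of 2.1 Mb each. Its density without these bands was not computed, so the order is not shown for sequence outside them. The other 5 stretches had between 42.4 and 74.2 per Mb. Band 19q12, of variable heterochromatin like most of the 19p12 cluster, held 8.68 per Mb of the shared kind (5.98 to 12.2), a value whose interval contains that of the 19p12 cluster. With the centromere bands left out of the rest, the fold for shared summits was 0.379.

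Summits in the clusters were few but ranked high. The score is the authors' own value per summit, of a scale not given in the sources used here, so it was used by its percentile within its list. The median score in the clusters was 14.6 in replicate 1, against 9.89 in the rest of chromosome 19 and 8.55 in the whole list. In replicate 2 it was 15.5, against 9.69 and 8.38. The median percentile was 73.8 against 55.8 in replicate 1, and 74.5 against 56.1 in replicate 2. In both lists, the highest score of chromosome 19 lay outside the clusters, at 84.5 and 98.7, where the clusters reached 67.8 and 55.9.

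In replicate 1, 161 of 221 cluster summits (72.9%, 95% exact binomial interval 66.5 to 78.6) ranked above the median, where the whole list has 50.8% because of tied scores. The rest of chromosome 19 had 55.9% (odds ratio 2.11, 95% Woolf interval from 1.56 to 2.87, p = 6.65e-07 by a two-sided Fisher's exact test). Replicate 2 had 172 of 234 above it (73.5%, 67.4 to 79.0), where the whole list has 49.6% and the rest of the chromosome 55.7% (odds ratio 2.20, 1.63 to 2.97, p = 7.6e-08 by the same exact test). The highest decile of scores held 57 cluster summits in replicate 1 (25.8%, with 9.94% in the whole list and 15.8% in the rest of the chromosome). In replicate 2 it held 59 (25.2%, with 9.99% and 16.0%). Both libraries thus had about the same excess of high ranks. The same 190 pairs make up most of the cluster summits of each list, so the lists are not independent here.

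The shortfall of summits was correspondingly larger among low scores. In the lowest decile of replicate 1 the clusters had 0.219-fold the density of the rest of the chromosome, with 13 summits, and in the highest decile 0.591-fold, with 57. In replicate 2 these were 0.213-fold with 14 summits and 0.537-fold with 59. The steps between were uneven, with 0.0903 in decile 5 of replicate 1 from only 4 summits. For shared summits that ranked above the median in their list the fold was 0.535 (interval 0.447 to 0.637), and with 10000 summits kept per list it was 0.531 (0.393 to 0.705).

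**Figure D3:**
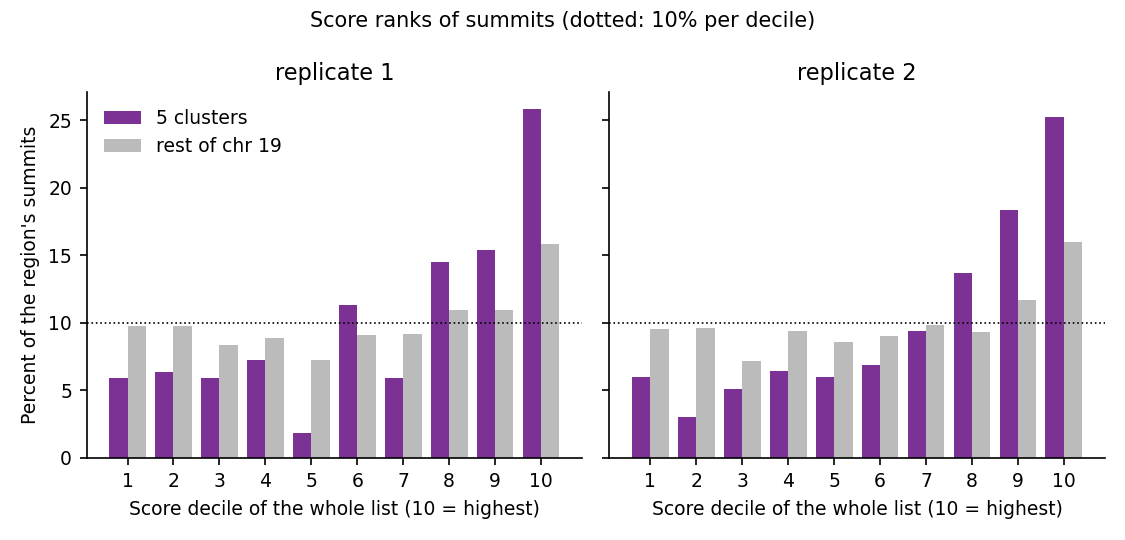
Percent of the summits of the 5 clusters and of the rest of chromosome 19 (vertical axis) in each score decile of the whole list (horizontal axis, 10 is the highest), in replicate 1 and replicate 2. The dotted line marks 10%; the highest decile holds 25.8% and 25.2% of the cluster summits, against 15.8% and 16.0% of those in the rest of the chromosome.

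High ranks were also counted by cluster. In 19q13.31, 19 of 20 summits of replicate 1 and 19 of 21 of replicate 2 lay above the median, and 11 and 9 lay in the highest decile. The 19q13.43 cluster had 56 of 76 and 58 of 79 above the median, with 24 and 25 in the highest decile, and 19p12 had 35 of 45 in each list, with 7 and 10. Each of these 3 clusters exceeded the rest of the chromosome in both lists, with adjusted p from 0.000894 to 0.00598 by Fisher's exact test over 5 clusters per list. The 19q13.12 cluster (21 of 31 and 24 of 37) and that of 19q13.41 and 19q13.42 (30 of 49 and 36 of 52) did not pass, with adjusted p from 0.0828 to 0.473 by the same exact test. This comparison by cluster was added after the data were seen, and differences between clusters were not tested. The 19p12 cluster therefore had the lowest density of the 5 together with high ranks.

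The next question was how often a cluster summit was found in both libraries. In replicate 1, 190 of 221 cluster summits had a partner (86.0%, 95% exact binomial interval 80.7 to 90.3), with 76.1% in the whole list and 75.5% in the rest of chromosome 19. The odds ratio against the rest of the chromosome was 1.98 (Woolf interval 1.35 to 2.93, p = 0.000287 by a two-sided Fisher's exact test). In replicate 2, 190 of 234 had one (81.2%, 75.6 to 86.0), with 65.2% in the whole list and 66.9% in the rest, an odds ratio of 2.14 (1.53 to 3.00, p = 3.02e-06 by the same exact test). The same 190 pairs enter both tests. By cluster, 19q13.43 passed in both lists, with 68 of 76 and 68 of 79 (adjusted p = 0.0198 and 0.00109, Fisher's exact test over 5 clusters per list). The 19q13.12 cluster had the highest share in replicate 1, 28 of 31 (90.3%), and 28 of 37 in replicate 2 (75.7%), and did not pass (adjusted p = 0.147 and 0.369, Fisher's exact test). Differences in this share between clusters were not tested. In 19p12, 38 of 45 had a partner in each list, which passed in replicate 2 only (adjusted p = 0.0265, and 0.366 in replicate 1, Fisher's exact test).

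Part of this excess moved with the ranks. When the rest of the chromosome was weighted to the score deciles of the cluster summits, 80.6% of its summits in replicate 1 and 76.6% in replicate 2 had a partner. The Mantel-Haenszel odds ratio over deciles was 1.58 in replicate 1 (interval 1.03 to 2.40, exact conditional p = 0.0335) and 1.47 in replicate 2 (0.991 to 2.19, exact conditional p = 0.0613), so the call was lost in replicate 2. With 10000 summits kept per list the odds ratios were 0.845 (0.514 to 1.39) and 1.01 (0.593 to 1.72). The lists were cut before pairing, so a partner below the cut counted as absent. These values therefore do not measure sharing at those ranks. On the full lists, 94.7% of cluster summits in the highest decile had a partner in replicate 1, against 89.7% in the rest. In replicate 2 these shares were 94.9% and 91.7%, with no test by decile.

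The paired summits lay close together. The median distance between partners was 22 bp in the clusters and 26 bp in the rest of the chromosome. In the clusters 169 of 190 pairs (88.9%) were at most 50 bp apart, against 78.5% in the rest, and 4 fell on the same base. Cluster pairs also ranked higher (median percentile 78.7 against 66.5), and the distances were not compared at equal ranks. In 19q13.31 all 16 pairs were within 50 bp, with a median of 11.5 bp. The scores of partners followed each other, with Spearman's rho of 0.766 across the 190 cluster pairs and 0.804 across the 2180 pairs of the rest. Summits are not independent replicates, and these are descriptions of one chromosome in the same 2 libraries.

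**Figure D4:**
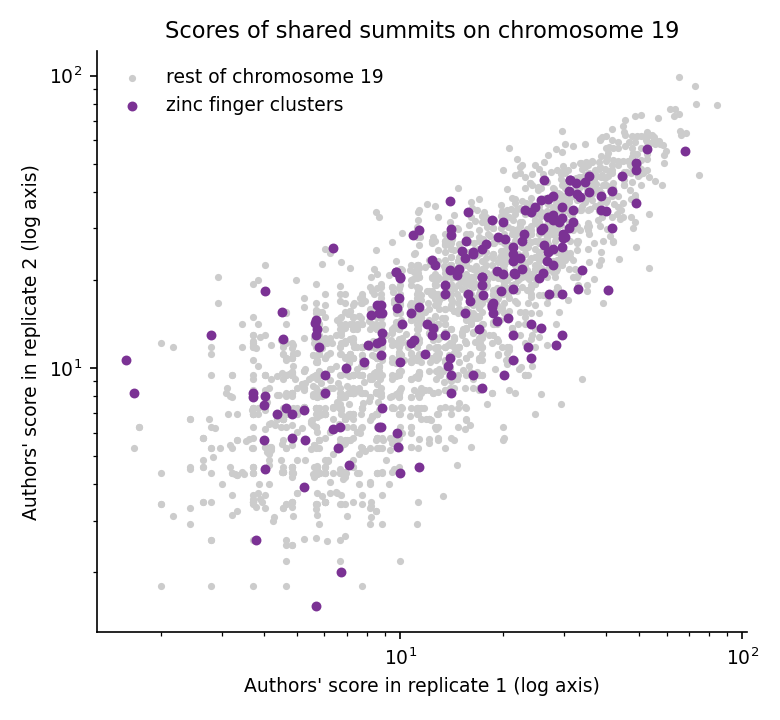
Authors' score of each shared summit of chromosome 19 in replicate 1 (horizontal axis) and replicate 2 (vertical axis), both on log axes, for the 190 pairs of the clusters and the 2180 pairs of the rest. The cluster pairs lie along the same diagonal as the others and are concentrated in its upper part, with median scores of 16.3 and 18.4 against 12.1 and 13.8.

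The shared summits that ranked highest are given by their base on chromosome 19 in replicate 1, with the scores of replicate 1 and replicate 2. Of the first 10, 6 lay in 19q13.43, which held 68 of the 190 cluster pairs. The first was at base 57874763, with scores of 67.8 and 55.4, and its partner lay 22 bp away. Base 57831815 followed, with 52.7 and 55.9, 1 bp from its partner. These 2 summits, 42948 bp apart, held the highest scores of the clusters in replicate 1 and in replicate 2, respectively.

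The third was base 37861984 in 19q13.12, with scores of 48.8 and 50.1. The fourth, base 44488257 in 19q13.31, had 48.8 and 47.5. Another 4 belonged to 19q13.43. Base 57791263 had scores of 44.4 and 45.4, and base 57791780 had 34.8 and 43.2. This pair of summits lay 517 bp apart, 2 bp and 5 bp from their partners. Base 57901231 had 48.7 and 36.8, and base 58090388 had 41.6 and 40.3. Base 52901040 in 19q13.41 had 35.6 and 45.2, and base 44809208 in 19q13.31 had 38.6 and 38.8. All 10 lay above the 96th percentile of both lists, and their partners were at most 40 bp away. The 19p12 cluster, with 38 of the 190 pairs, had none of them. Its own highest pair, at base 21324758 with scores of 32.8 and 39.3, ranked 18 among the 190.

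**Figure D5:**
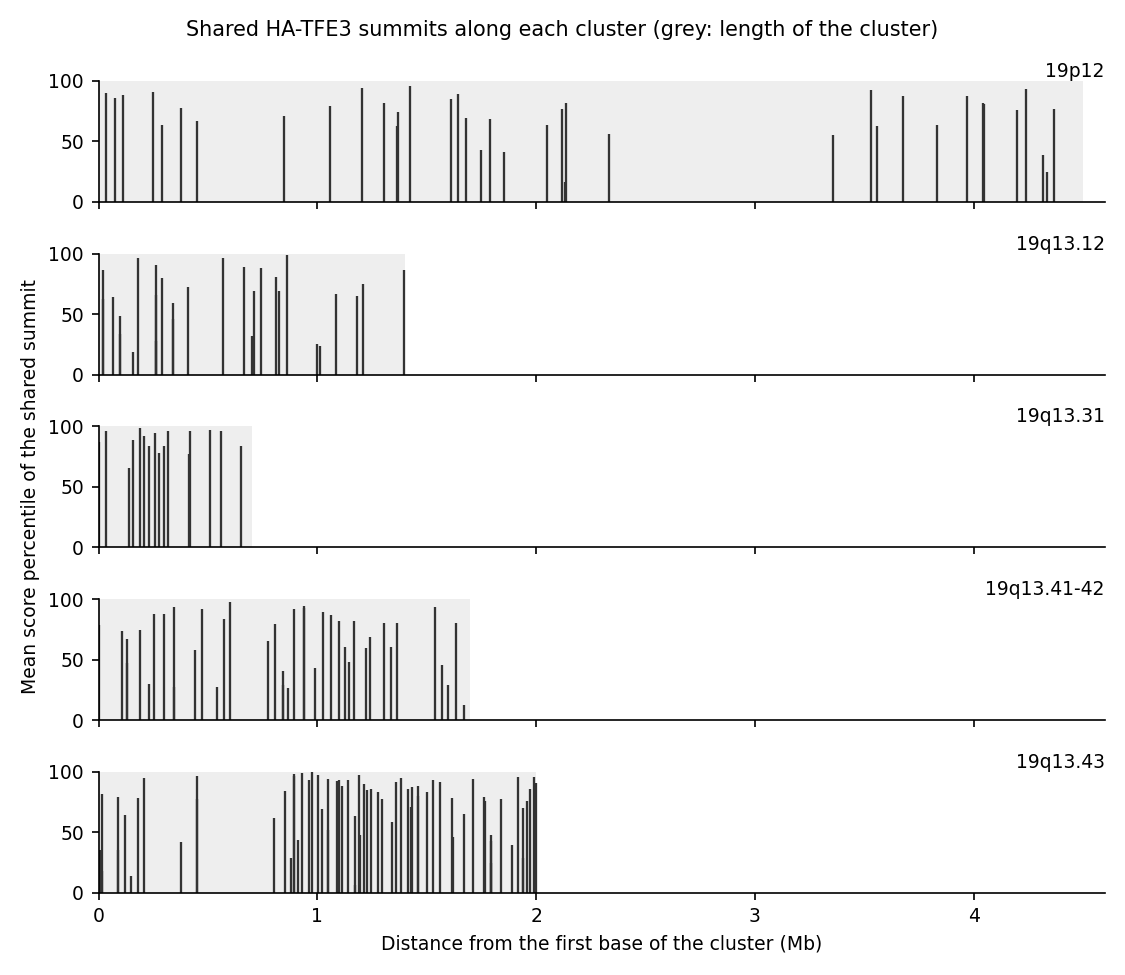
Shared summits along each of the 5 clusters, placed by the distance from the first base of the cluster (horizontal axis, Mb) with a height equal to the mean score percentile of both lists (vertical axis). Grey marks the length of each cluster; the 19p12 cluster has an empty stretch of 1.02 Mb, and 19q13.43 is filled mainly in its distal part.

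Within the clusters, summits stood far apart. The median distance between neighbouring shared summits was 31043 bp, against 9365 bp in the rest of the chromosome. By cluster it was 68602 bp in 19p12, 36482 bp in 19q13.12, 26651 bp in 19q13.31, 33739 bp in 19q13.41 and 19q13.42, and 21636 bp in 19q13.43. Close neighbours still occurred, and 15 of 185 distances (8.11%) were at most 1 kb, against 11.1% in the rest. At 500 bp the order turned, with 9 distances (4.86%) in the clusters against 2.76% in the rest. In replicate 2 these were 9.17% against 5.41%, and in replicate 1 they were nearly equal, with 6.02% against 5.63%. Of the 15 within 1 kb, 7 lay in 19q13.43, 4 in 19q13.12 and 4 in 19q13.41 and 19q13.42, and 19p12 and 19q13.31 had 0.

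Of 103 windows of 100 kb in the clusters, 24 held no shared summit, and 20 of these were among the 45 windows of 19p12. The other 4 clusters had 4 empty windows of 58 (6.90%), against 15.0% in the rest of the chromosome outside the centromere bands. Windows with 5 or more shared summits were 11 of 103 in the clusters (10.7%) and 212 of 488 in the rest (43.4%). Outside 19p12 they were 11 of 58 (18.97%), against 47.5% in the rest without the centromere bands. Well-filled windows were thus rarer in these 4 clusters than there, as counts with no test. Empty windows were rarer only with 19p12 left out, since over all 5 clusters they made up 23.3%. The rest still includes the sparse band 19q12. The fullest window, bases 58800001 to 58900000 in 19q13.43, held 8 shared summits and lies at the distal edge of that cluster. Bases 37000001 to 37100000 in 19q13.12, 44500001 to 44600000 in 19q13.31 and 53100001 to 53200000 in 19q13.41 held 5 each. In 19p12 no window held more than 3, a count reached in 4 windows.

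The longest distance between neighbouring shared summits lay in 19p12, from base 22235211 to 23257980. Over these 1.02 Mb neither list had any summit. In 19q13.43 the longest distance was 352212 bp, from base 57350594 to 57702806, with 1 summit in each list between. The longest distances in the remaining 3 clusters were 187086, 174581 and 108026 bp. When 19p12 was divided into 3 parts of 1.5 Mb, they held 14, 11 and 13 shared summits, so the density was low in each part. The empty stretch crosses the border of 2 of these parts at base 22900000, so the similar counts do not show an even layout.

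A partner was lacking for 31 cluster summits of replicate 1 and 44 of replicate 2. They ranked low, with median percentiles of 33.9 and 31.5, against 78.0 and 80.5 for the cluster summits with a partner. Summits without a partner ranked low outside the clusters as well, with medians of 24.8 and 25.3 in the rest of chromosome 19. In replicate 1, 9 of the 31 had a summit of the other list within 500 bp and 10 had none within 10 kb, and in replicate 2 these were 17 and 14 of 44. The same counts were not made for the rest of the chromosome, where summits are denser. They therefore do not show a trait of the clusters. The highest-scoring summit without a partner was at base 58790101 in 19q13.43 in replicate 1, with a score of 46.5, and at base 58790205 in replicate 2, with 44.3. The 2 lay 104 bp apart, just past the pairing limit of 100 bp, at percentiles of 98.7 and 97.9.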

How the data were processed

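The files deposited by the authors list, per ChIP library, summits of 1 bp, each with a score. Coordinates are hg19, as the submitters' processing notes state, and the aligner, caller, thresholds and role of the input were not given in the sources used. Scores were compared between regions by rank within a list. Positions were made 1-based, and summits on chromosomes 1 to 22 and X were kept, leaving out 35 and 45. Cytogenetic bands were those of circlize 0.4.16, with lengths of chromosomes taken from GenomeInfoDb 1.38.1. Densities were compared with exact conditional binomial tests, shares with Fisher's exact tests and, at equal score deciles, an exact conditional test over strata with the Mantel-Haenszel odds ratio. P-values over clusters were adjusted by Benjamini-Hochberg. The steps were tested on simulated lists. Calculations used Python 3.11.15, SciPy 1.17.1, pandas 2.3.3 and statsmodels 0.14.6.

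Named summits are the 10 shared ones with the highest mean percentile, the best of each cluster, the fullest window and longest gap of each cluster, and the best summit without a partner in each list. The regions and rules were chosen with earlier results of these data known. Windows of 100 kb lie on a fixed grid. Gene names and their order came from RefSeq on GRCh38.p14. No hg19 annotation or sequence was used here, so the planned gene and motif counts were not run and no sequence is printed. Alternatives were other pairing limits, score thresholds, references and sets of clusters.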

Additional observations from a re-analysis of the deposited data

How the results depend on the processing

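The lower density of shared summits in the clusters than in the rest of chromosome 19 passed in all 17 alternatives that kept this chromosome as the reference. Leaving out 1 library gave folds of 0.340 and 0.363, and leaving out the 19p12 cluster gave 0.587. Against the rest of the genome, added after the data were seen, the direction turned (1.18), as it did for 19q13.12 (1.28), 19q13.31 (1.47), 19q13.41 with 19q13.42 (1.51) and 19q13.43 (2.18), and not for 19p12 (0.541). That reference counts whole chromosome lengths with their gaps, which raises these folds. For single clusters, pairs within 50 bp gave 0.652 in 19q13.31 and 0.870 in 19q13.43, and summits above the median score gave 0.887 and 0.970, none past the threshold. Among the 10000 highest-scoring summits 19q13.12 had 0.434 and 19q13.41 with 19q13.42 had 0.536, no longer past it, and 19q13.31 and 19q13.43 turned to 1.16 and 1.17. Among these summits a partner below the cut counted as absent. The odds ratio of having a partner then fell to 0.845 in replicate 1 and 1.01 in replicate 2. At equal ranks it fell to 1.47 in replicate 2. The cause was not tested. The higher share above the median passed in all 11 alternatives in each replicate, with odds ratios between 1.90 and 2.83. It has no value among the 10000 highest, which all lie above the median. With each library alone, the fold of the 5 clusters, in order, ran from 0.150 to 0.169, 0.375 to 0.396, 0.449 to 0.483, 0.458 to 0.488 and 0.591 to 0.643. Distances of at most 500 bp made up 4.86% in the clusters and 2.76% in the rest, the opposite order to that at 1 kb, and those of at most 5 kb made up 14.6% and 35.6%. At 500 bp replicate 1 had 6.02% and 5.63%, nearly equal, and replicate 2 had 9.17% and 5.41%. In single libraries, those of at most 1 kb made up 10.6% to 13.97% and 16.4% to 16.7%. With variable heterochromatin left out, the 19p12 cluster keeps too little sequence and has no value. No paired analysis was possible because only 1 group has lists. Depth, and the part of each cluster that short reads can reach, are unknown and limit what a low count can show.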
